A study of Mus musculus with 4 samples.

Results

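The levels of 8 long noncoding RNAs of 3 kinds were measured in 4 RNA sequencing libraries of cultured mouse alveolar type II cells, which line the lung alveolus and secrete surfactant. They are the nuclear-body RNAs Malat1 and Neat1, the small nucleolar RNA (snoRNA) hosts Gas5, Snhg1 and Snhg12, and the imprinted RNAs H19, Meg3 and Kcnq1ot1. The 8 genes were chosen by name and found by their Entrez identifiers among 28096 identifiers, of which 2104 are long noncoding RNA (lncRNA) genes in RefSeq. All 4 libraries carry the single genotype label KRasEtv wt, so no condition could be compared, and levels, their order and their spread over libraries are described. The design text lists mice of 3 genotypes that all carry KRaswt/d12 and RosaCreERT2, a tamoxifen-activated Cre made from the broadly active Rosa locus; the second genotype adds Etv5loxp/loxp, and the third adds Etv4KO/KO as well. Which of these KRasEtv wt stands for is not given in the labels, and neither are the age and sex of the mice or a link from library to mouse. Sorted cells (EpCAM+, and negative for CD24, CD45, CD31 and Pdpn) had been grown in matrigel with BEGM medium and 100 nM 4OHT for 4 days, and then for 1 day without 4OHT, before RNA was taken. Libraries 1 to 4 are names given in accession order.

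Malat1 is a long RNA retained in the nucleus at nuclear speckles, the domains that store splicing factors, and Neat1 is the scaffold around which paraspeckles form. snoRNA host genes carry snoRNAs in their introns. The introns yield snoRNAs that guide the modification of other RNAs, while the spliced exons of several hosts are translated from short reading frames and removed by nonsense-mediated decay. Imprinted RNAs are transcribed from the copy inherited from 1 parent: H19 and Meg3 from the maternal copy, and Kcnq1ot1, which silences its neighbours, from the paternal one. H19 and Meg3 are known as RNAs of fetal tissues that are low in most adult cells.

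Between 12133251 and 13591876 reads were counted per library. The alveolar type II markers were abundant, with Sftpc at 10006 ± 3649 nRPKM (SD, n = 4), where nRPKM is the authors' count of reads per gene length, adjusted for the size of the library. All 10 listed type II markers had their lowest level in library 1, against 26.8% of all genes with a mean of at least 1 nRPKM. The summed level of the 10 markers was 10170, 17148, 22087 and 16883 nRPKM in libraries 1 to 4. Mitochondrial ribosomal RNA took 23.0%, 35.1%, 19.6% and 38.9% of the reads. Library 3 stood apart in genes of the sex chromosomes, with Xist at 66.3 nRPKM against 0.255 to 0.784 in the other libraries and the Y-linked Eif2s3y at 0.243 against 14.6 to 23.2. The 8 endothelial markers summed to 0.908 nRPKM or less in every library. Results that rest on library 3 are given with and without it.

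The 8 RNAs covered a wide range of levels, and the first 6 kept their places in the order in all 4 libraries. Malat1 averaged 1975 ± 834 nRPKM, Neat1 198 ± 64.9, Snhg1 49.1 ± 15.8, Gas5 40.9 ± 10.5, Snhg12 10.2 ± 3.29 and Kcnq1ot1 1.82 ± 0.573 (SD, n = 4 each). Meg3 at 0.271 ± 0.129 and H19 at 0.266 ± 0.217 nRPKM came last. The first 5 were therefore among the 29 lncRNA genes with a mean of at least 10 nRPKM, and Kcnq1ot1 was among the 268 with at least 1. No read at all was counted for 815 lncRNA genes.

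**Figure D1:**
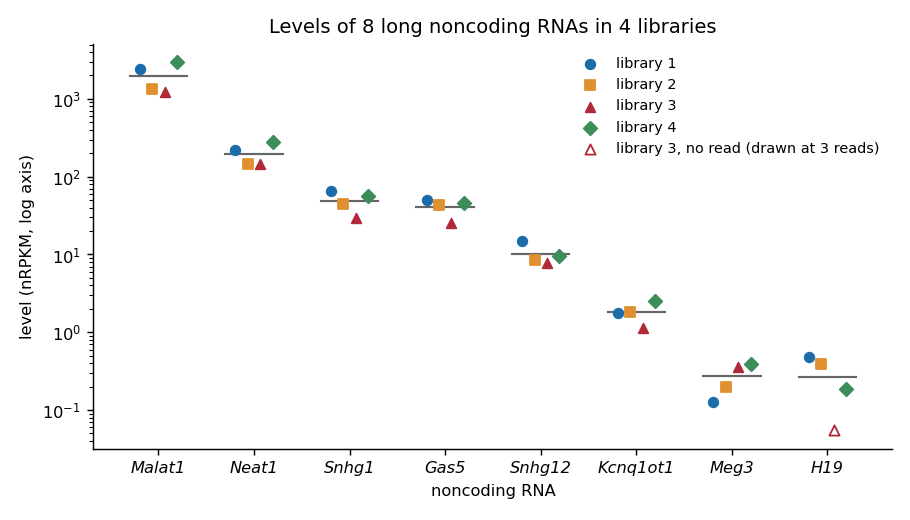
Level of the 8 noncoding RNAs in each library, in nRPKM on a log axis, with a grey bar at the mean of 4 libraries. Malat1 lies at 1237 nRPKM or more in every library, Meg3 and H19 lie below 0.5, and the open triangle marks H19 in library 3, which had no read and is drawn at the level of 3 reads.

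Malat1 was the most abundant lncRNA gene in the tables and ranked 7 among all genes. Its level was 2391, 1325, 1237 and 2948 nRPKM in libraries 1 to 4, from 340392, 164188, 180858 and 335504 reads. Libraries 1 and 4 were thus high and libraries 2 and 3 low, with a highest over lowest ratio of 2.38. Malat1 alone took 2.81%, 1.26%, 1.40% and 2.47% of all reads in the same order, and the widest 95% Wilson interval of these shares ran from 2.80% to 2.81%. Such intervals cover counting error only, since copies made by PCR were not marked.

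Neat1 was the second most abundant lncRNA gene, with 222, 146, 145 and 279 nRPKM in libraries 1 to 4, from 14374, 8216, 9667 and 14445 reads. It was high and low in the same libraries as Malat1, and its ratio of highest to lowest was 1.92. The Malat1 level exceeded the Neat1 level by 10.8, 9.09, 8.51 and 10.6 times in libraries 1 to 4, a ratio of 9.74 ± 1.11 (SD, n = 4). This ratio varied 1.27-fold over the libraries, less than either RNA did. On the log2(nRPKM + 1) scale Malat1 lay 3.27 ± 0.17 above Neat1 and was higher in 4 of 4 libraries (exact permutation test by sign flips, two-sided, p = 0.13, the lowest possible with 4 libraries; adjusted p = 0.130 by Benjamini-Hochberg over 28 pairs).

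The ends of these RNAs matter for a library of polyadenylated RNA, because Malat1 and the long form of Neat1 are known to end in an A-rich stretch that the genome encodes, not in an added poly(A) tail. The last bases upstream of the small mascRNA cut from Malat1, and the ends of the long and short Neat1 transcripts, are shown for that reason. All 3 were read from GENCODE M21 transcripts on GRCm38 and lie on the minus strand of chromosome 19. Capitals mark, in the first and second sequences, the longest run that both share upstream of the A-rich end and the A-rich end itself, and in the third the hexamer AATAAA that signals cleavage and polyadenylation.
Malat1 before mascRNA, chr19:5795982-5796061: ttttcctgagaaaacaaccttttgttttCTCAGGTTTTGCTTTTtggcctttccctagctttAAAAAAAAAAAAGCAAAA
Neat1 long form, chr19:5824708-5824787: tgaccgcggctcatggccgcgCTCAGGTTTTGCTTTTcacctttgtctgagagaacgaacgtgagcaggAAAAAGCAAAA
Neat1 short form, chr19:5842307-5842386: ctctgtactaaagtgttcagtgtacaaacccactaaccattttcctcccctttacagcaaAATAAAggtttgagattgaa
The shared run is 16 bases long, begins with CTCAGG and is rich in T, and 18 bases separate it from the A-rich end in Malat1 and 32 bases in Neat1. T-rich and A-rich stretches of this kind are known to fold into a triple helix that protects the 3′ end. In the short form of Neat1 the hexamer ends 14 bases before the end of the transcript. The annotated long form spans 20771 bases, and the short form spans 3170 bases and is 3004 bases long once spliced. The gene length implied by the deposited values was 3177 bases for Neat1 and 6982 bases for Malat1, against RefSeq spans of 20773 and 6983 bases. The Neat1 level is therefore scaled to a length near that of the short form, and the tables give no separate value for the long form.

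Genes of the proteins that share these nuclear bodies were expressed. Of 15 listed paraspeckle protein genes, 13 had a mean of at least 1 nRPKM. Of these, in nRPKM, 1 was lowest in library 3 and 7 were lowest in library 2. Of all genes at this level, 18.4% were lowest in library 3 and 26.6% in library 2. Hnrnpm at 33.9 ± 9.30 and Sfpq at 32.3 ± 4.94 nRPKM (SD, n = 4), both RNA-binding proteins, led the list. All 15 listed nuclear speckle protein genes had a mean of at least 1 nRPKM, and Srsf2 (89.4 ± 8.97), Srrm2 (74.2 ± 19.3) and Srsf5 (42.5 ± 13.3 nRPKM), all splicing factors or cofactors, had the highest levels.

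The 3 snoRNA hosts were next in abundance, and 2 of them had nearly the same level. Snhg1, the host of several box C/D snoRNAs, had 66.2, 44.7, 29.4 and 56.2 nRPKM in libraries 1 to 4, from 642, 378, 293 and 436 reads. Gas5, named for its build-up in growth-arrested cells, had 49.6, 42.8, 25.7 and 45.5 nRPKM, from 2580, 1941, 1376 and 1893 reads. Both had their high in library 1 and their low in library 3, and their ratios of highest to lowest were 2.25 for Snhg1 and 1.93 for Gas5. Without library 3 these ratios were 1.48 for Snhg1 and 1.16 for Gas5. Their ranks among lncRNA genes were 5 for Snhg1 and 6 for Gas5.

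Snhg1 exceeded Gas5 per length by 1.34, 1.04, 1.14 and 1.24 times in libraries 1 to 4. The difference on the log2(nRPKM + 1) scale was 0.24 ± 0.15 (SD, n = 4), in the same direction in 4 of 4 libraries (exact permutation test, p = 0.13; adjusted p = 0.130). This order depends on the gene lengths the authors used, which were 476 bases for Snhg1 and 2554 bases for Gas5. In CPM (reads per total, with no length), Gas5 was the higher of the pair, at -2.14 on the log2 scale for Snhg1 minus Gas5.

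Snhg12 was the least abundant of the 3 hosts, with 14.98, 8.46, 7.72 and 9.52 nRPKM in libraries 1 to 4, from 185, 91, 98 and 94 reads. Library 1 was high, and the 95% Poisson intervals of the reads in the other libraries, 73.3 to 112, 79.6 to 119 and 76.0 to 115, overlapped. Gas5 lay 1.91 ± 0.31 above Snhg12 on the log2(nRPKM + 1) scale in 4 of 4 libraries (exact permutation test, p = 0.13; adjusted p = 0.130). Without library 1 the highest over lowest ratio of Snhg12 was 1.23, against 1.94 with it.

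**Figure D2:**
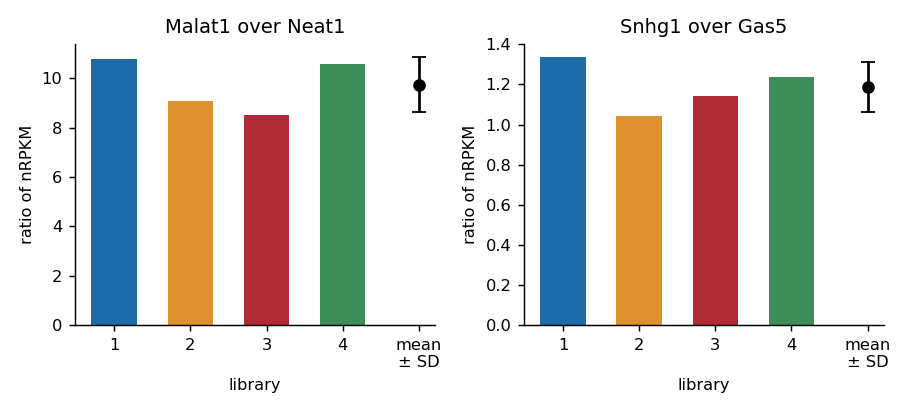
Ratio of nRPKM within each library for Malat1 over Neat1 (left) and Snhg1 over Gas5 (right), with the mean and SD of 4 libraries at the right of each panel. The Malat1 to Neat1 ratio stays between 8.51 and 10.8 and the Snhg1 to Gas5 ratio between 1.04 and 1.34.

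snoRNA hosts are textbook members of the 5′ TOP class of transcripts, which begin with a C followed by a run of C and T. The annotated starts of the 3 hosts are shown for that feature, from the RefSeq promoter table of GRCm38.p6, each as the 25 bases before the start and the first 25 bases of the transcript on the plus strand. Capitals mark a C that lies within 5 bases of the annotated start, together with at least 4 C or T after it.
Gas5 (second listed start), chr1:161035141-161035190: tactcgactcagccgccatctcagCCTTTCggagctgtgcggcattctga
Snhg12, chr4:132308653-132308702: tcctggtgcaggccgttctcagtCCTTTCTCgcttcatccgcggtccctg
Snhg1, chr19:8723462-8723511: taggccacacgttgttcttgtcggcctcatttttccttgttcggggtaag
Such a run was found for Gas5 and Snhg12 and not in this window of Snhg1, searched on the transcribed strand. It was present at 1 or more starts of 5718 of 27025 genes in the table (21.2%) and of 6 of 14 other noncoding snoRNA hosts that matched (42.9%). The first listed Gas5 start, which lies upstream, held none. Of the 8 RNAs, 6 had an entry in the promoter table.

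Of 17 other noncoding snoRNA hosts listed, 13 had a mean of at least 1 nRPKM, led by Zfas1 at 17.6 ± 5.17, Snhg5 at 13.1 ± 1.76 and Snhg6 at 11.1 ± 6.75 nRPKM (SD, n = 4). Snhg3 (9.12 ± 2.08), Snhg15 (8.03 ± 3.52), Snhg11 (6.19 ± 2.28), Snhg8 (5.76 ± 1.33), Snhg7 (5.76 ± 1.69) and Epb41l4aos (4.36 ± 2.10) followed, in nRPKM. Snhg18 (3.68 ± 1.02), Snhg4 (3.23 ± 1.53), Snhg20 (2.73 ± 1.09) and Snhg17 (1.76 ± 0.309) were the lowest above 1 nRPKM. Snhg16, Snhg10, Snhg9 and Snhg14 averaged from 0.248 to 0.755 nRPKM. Snhg6 varied most among the 13, with 14.5, 18.96, 4.93 and 6.03 nRPKM in libraries 1 to 4 and a ratio of highest to lowest of 3.85. The 8 protein-coding hosts listed, such as the ribosomal scaffold gene Rack1 at 169 ± 38.1 nRPKM, all averaged above 1.

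Mature snoRNAs lack a poly(A) tail and few of their reads were counted. Of 22 listed snoRNAs of the 3 hosts, 6 matched a gene identifier, and Snord99 (6 to 21 reads), Snord22 (18 to 44) and Snora61 (3 to 12) had the highest levels per length. The 5 with a mean of at least 1 nRPKM were all lowest in library 2, with 2 to 18 reads each there. Of all genes at this level, 26.6% were lowest in library 2. The 3 hosts were lowest in library 3 in nRPKM, but Snhg12 had 91, 98 and 94 reads in libraries 2 to 4, with overlapping intervals. The snoRNA values rest on few reads, and a read from a host intron cannot be told from a read of the snoRNA in it.

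Of the 3 imprinted RNAs, Kcnq1ot1 had the highest level. It had 1.77, 1.85, 1.13 and 2.53 nRPKM in libraries 1 to 4, from 3019, 2734, 1978 and 3446 reads. Library 4 was high and library 3 low, with a ratio of 2.24 between them, which was 1.43 without library 3. The length behind these values was 83437 bases, the whole unspliced RefSeq span, so the many reads give a low level per length. Snhg12 lay 1.97 ± 0.42 above Kcnq1ot1 on the log2(nRPKM + 1) scale in 4 of 4 libraries (exact permutation test, p = 0.13; adjusted p = 0.130). In CPM, the order was the opposite, at -4.46.

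Kcnq1ot1 is transcribed from within Kcnq1 on the opposite strand, and it is not stated whether the counting used strand, so reads of introns of Kcnq1 cannot be told from reads of Kcnq1ot1. Kcnq1, a potassium channel gene, had 1.93 ± 0.475 nRPKM (SD, n = 4). Cdkn1c, the cell cycle inhibitor that Kcnq1ot1 is known to silence on the paternal copy, had 1.97 ± 0.476 nRPKM. Phlda2 (3.46 ± 1.11), Slc22a18 (3.09 ± 1.11), Tssc4 (4.01 ± 0.706) and Cd81 (194 ± 56.4 nRPKM) lie in the same cluster. Ascl2 had 0.516 ± 0.326 nRPKM. Of the 6 genes of the listed clusters with a mean of at least 1 nRPKM, 5 were lowest in library 4 in nRPKM and none was lowest in library 3. Of all genes at this level, 28.1% were lowest in library 4 and 18.4% in library 3.

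Meg3, a maternally expressed RNA of the Dlk1-Dio3 cluster, had 0.1254, 0.201, 0.363 and 0.395 nRPKM in libraries 1 to 4, from 33, 46, 98 and 83 reads. Libraries 3 and 4 were thus higher than 1 and 2, and the 95% Poisson intervals of the reads, 22.7 to 46.3 and 33.7 to 61.4 in libraries 1 and 2 and 79.6 to 119 and 66.1 to 103 in libraries 3 and 4, did not overlap between these pairs. Unlike the other 7 RNAs, Meg3 was lowest in library 1. Rian, a snoRNA host of the same cluster, had 0.242 ± 0.162 nRPKM, from 27, 7, 7 and 23 reads in libraries 1 to 4. Mirg had at most 1 read in a library. Dlk1 (0.0613 ± 0.0753), Dio3 (0.0356 ± 0.0413) and Rtl1 (0.00831 ± 0.0104 nRPKM), the protein-coding genes of this cluster, were close to the limit of detection.

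H19, the maternal RNA of the H19-Igf2 cluster, was detected in 3 of the 4 libraries. It had 26, 18 and 8 reads in libraries 1, 2 and 4, which is 0.488, 0.388 and 0.188 nRPKM, and no read in library 3. A count of 0 allows up to 3 reads, or 0.0548 nRPKM, in library 3. Against that floor the level in library 1 was 8.90-fold higher, the counting error of its own 26 reads set aside. Without library 3 the ratio of highest to lowest was 2.60. The miRNA gene Mir675 within H19 had 1, 1, 0 and 0 reads. Igf2, the paternally expressed growth factor of this cluster, had 0.395 ± 0.203 nRPKM (SD, n = 4), and Ins2 had no read.

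The summed levels of mesenchymal, basal, mesothelial and club cell markers were also lowest in library 3. This did not hold for every list. The 10 leukocyte markers summed to 91.4, 94.6, 55.8 and 49.4 nRPKM in libraries 1 to 4, lowest in library 4. The 8 alveolar type I markers summed to 660, 564, 724 and 555 nRPKM, highest in library 3. The 12 mesenchymal markers summed to 30.9, 20.98, 7.37 and 15.1 nRPKM in libraries 1 to 4, the same order of libraries as for H19, and 5 of the 12 had a mean of at least 1 nRPKM. Dcn, a matrix proteoglycan that is itself imprinted, had 14.1, 4.41, 0.962 and 2.56 nRPKM, Col1a1 had 6.04, 6.66, 1.88 and 3.79, and Col1a2 had 4.70, 3.98, 1.49 and 3.92. Tagln was an exception, lowest in library 1 with 1.30 nRPKM against 1.75 in library 3. Lum had no read in library 3, Tcf21 had none in libraries 2 and 3, and Mfap4 had none in library 4. The 6 basal cell markers summed to 149.5, 103, 20.9 and 48.4 nRPKM and the 6 mesothelial markers to 39.9, 23.1, 11.7 and 15.2, again in that order. The mesothelial sum came almost wholly from Upk1b (mean 11.3 nRPKM) and Msln (10.9), both lowest in library 3. Wt1 and Gpm6a were lowest in library 2 and Lrrn4 in library 4, each at 0.226 nRPKM or less, and Upk3b had no read. The 6 club cell markers summed to 321, 1060.2, 149.9 and 281 nRPKM. A sort for EpCAM is meant to leave mesenchymal and mesothelial cells out. The part of such cells in the H19 values was not tested, and in bulk RNA fewer cells of a type and less RNA per cell cannot be told apart.

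**Figure D3:**
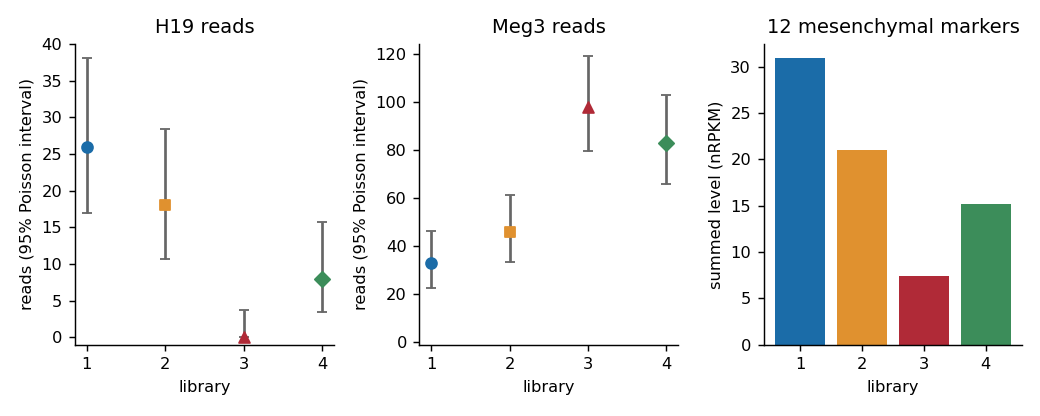
Reads of H19 and Meg3 in each library with exact 95% Poisson intervals (left and middle) and the summed level of 12 mesenchymal markers in nRPKM (right). H19 has 0 reads in library 3, where the mesenchymal markers are also lowest at 7.37 nRPKM, and Meg3 has its most reads there, 98.

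The levels of Meg3 and H19 per length could not be ordered. Meg3 minus H19 was 0.02 ± 0.39 on the log2(nRPKM + 1) scale, above 0 in 2 of 4 libraries (exact permutation test, p = 0.875), and its sign turned without library 3 (-0.13) or library 4 (-0.06). In CPM, with no length, Meg3 was the higher of the pair by 1.61 in 4 of 4 libraries (exact permutation test, p = 0.13); the gene lengths were 12906 bases for Meg3 and 2615 bases for H19. The remaining neighbours in the order kept 1 direction in 4 of 4 libraries: Neat1 was 1.99 ± 0.33 above Snhg1 and Kcnq1ot1 1.13 ± 0.33 above Meg3 (p = 0.13 each by the same exact test; adjusted p = 0.130). Of all 28 pairs, 27 reached this smallest p, so no pair could pass a threshold of 0.05 in a design of 4 libraries.

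Seen together, most of the 8 RNAs had their lowest nRPKM in library 3, and their highs in library 1 or 4. All 6 with a mean of at least 1 nRPKM were lowest in library 3, against 18.4% of the 11904 genes and 36.2% of the 268 lncRNA genes at this level. For Neat1 the levels in libraries 2 and 3 were nearly the same, at 145.7 and 145.3 nRPKM. For Snhg12 (8.46 and 7.72 nRPKM) the intervals of the reads in these libraries overlapped. Of the other noncoding snoRNA hosts, 8 of 13 were lowest in library 3 (4 of 13 in CPM), and of the 8 protein-coding hosts, 1. In nRPKM Malat1, Neat1, Kcnq1ot1 and Meg3 were highest in library 4, and the 3 snoRNA hosts and H19 in library 1; in CPM Malat1 and Neat1 were highest in library 1 and Meg3 in library 3. The library was singled out after its values were seen, and the count rests on the scaling. In CPM, which places the median gene of library 3 0.18 higher on the log2 scale than its mean over libraries, the count was 3 of 6, with Malat1 and Neat1 lowest in library 2 and Snhg12 in library 4, against 7.19% of all genes and 23.9% of lncRNA genes. With TMM factors the count was 5 of 6, with Neat1 lowest in library 2, against 16.9% of all genes and 33.6% of lncRNA genes. In CPM without mitochondrial genes it was 6 of 6, against 23.3% of all genes and 41.0% of lncRNA genes.

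**Figure D4:**
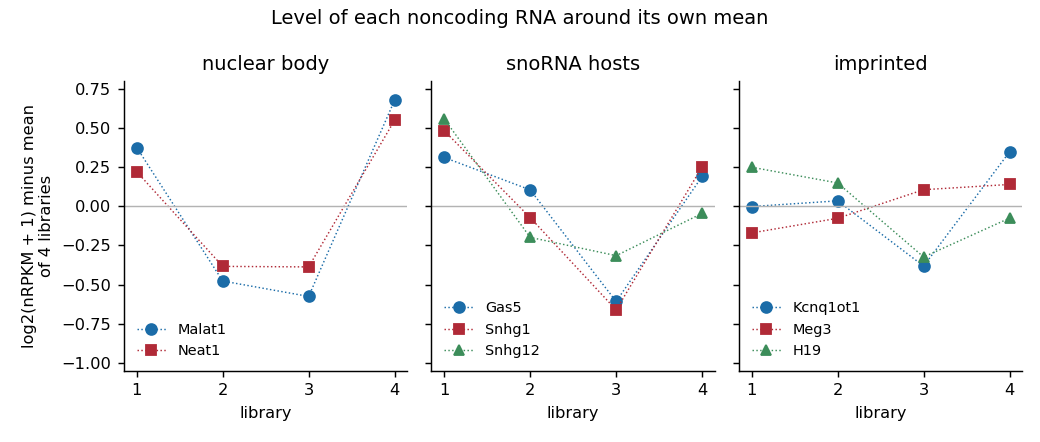
log2(nRPKM + 1) of each RNA minus its own mean over 4 libraries, by kind; the dotted lines join points of 1 RNA and imply no order of the libraries. Malat1 and Neat1 are above 0 in libraries 1 and 4, Gas5 and Snhg1 reach below -0.6 in library 3, and Meg3 is the exception, above 0 there.

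**Figure D5:**
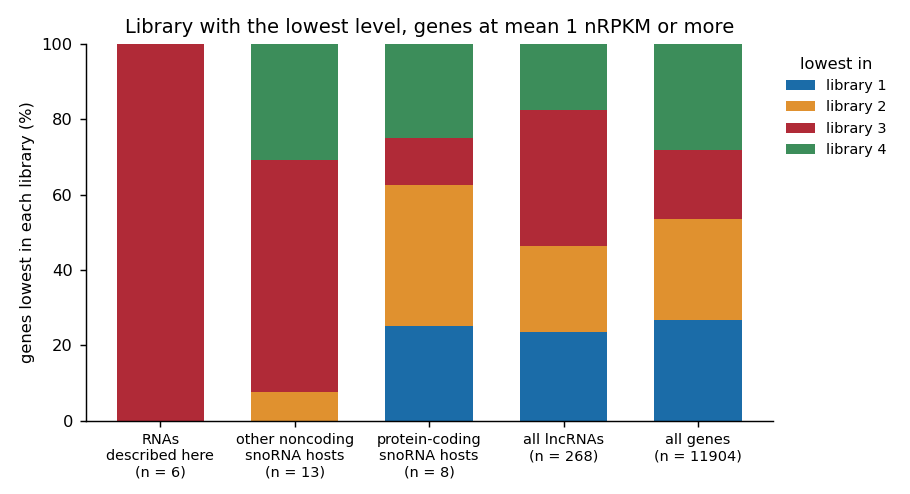
Percentage of genes with a mean of at least 1 nRPKM that have their lowest level in each library. All 6 RNAs described here are lowest in library 3 in nRPKM (3 of 6 in CPM), against 36.2% of 268 lncRNAs and 18.4% of 11904 genes.

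At least 2-fold variation over the libraries was seen for 3 of the 6 (Malat1, Snhg1 and Kcnq1ot1), against 22.8% of genes at this level. Without library 3 it was 1 of 6 (Malat1), against 17.9% of genes. Which RNAs passed depended on the scaling. In CPM the ratio was 2.22 for Malat1, 2.33 for Snhg1 and 2.20 for Snhg12. It was 1.998 for Gas5, 1.87 for Neat1 and 1.66 for Kcnq1ot1, and the share of all genes was not computed in CPM. Spread beyond that of genes of like abundance was tested on the counts with edgeR's quasi-likelihood dispersion, for 13156 genes after filtering on low counts. Of these, 2 genes (0.0152%) were called at an adjusted p of 0.05 and 675 had an unadjusted p under 0.05. H19 did not pass the filter. None of the other 7 RNAs was called, and 0 of them had an unadjusted p under 0.05. In simulated counts the test called 32% of 4-fold rises in 1 library, and smaller changes were not simulated. The lowest adjusted p from edgeR was that of Meg3 (0.991, by Benjamini-Hochberg), followed by Snhg1 (0.996). DESeq2 marked none of the 8 among 71 genes it found to be outliers in dispersion. The ratio of a gene's dispersion to that of genes of like abundance had a median of 2.07 over the 7 RNAs and 0.838 over all genes tested. The value for the 7 RNAs rests largely on library 3. Without library 3 the ratio was 0.686 for Malat1, 1.35 for Neat1, 0.121 for Gas5 and 0.884 for Snhg1. It was 1.41 for Snhg12, 3.72 for Meg3 and 0.693 for Kcnq1ot1. With no filter on low counts, edgeR gave H19 an adjusted p of 0.320, and 66 genes were called.

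Genes with the most similar pattern over the libraries were sought for each RNA with a mean of at least 1 nRPKM, among 3504 genes with at least 10. The measure was the root mean square difference of log2(nRPKM + 1), centred on each gene's mean. The added 1 shrinks the differences of Kcnq1ot1, at 1.82 nRPKM, more than those of the genes searched. The closest to Malat1 was Neat1 (0.15), followed by the miRNA gene Mir3064 (0.18). The closest to Neat1 were Mir3064 (0.04) and Mir5116 (0.09), which lie within Ddx5 and Mmgt1. For Snhg1 they were Clk1, a kinase of splicing factors (0.06), and Gas5 (0.13). The 2 genes closest to Gas5 were Nae1 and 1110038B12Rik, those closest to Snhg12 were Itga2 and 4930562F07Rik, and those closest to Kcnq1ot1 were Zfc3h1 and Nptn. With 4 libraries, likeness of this degree is a description: 13 genes lay within 0.1 of Kcnq1ot1, 11 of Snhg12, and 1 each of Gas5 and Snhg1.

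The neighbours of these genes on the chromosome were expressed at levels of their own. Slc3a2, an amino acid transporter subunit that starts beside Snhg1, had 58.2, 29.0, 28.2 and 17.5 nRPKM in libraries 1 to 4, and Wdr74, on the other side, had 18.3, 7.48, 18.9 and 11.9. Zbtb37, whose start region Gas5 overlaps, had 1.74 ± 0.682 nRPKM (SD, n = 4). Of 16 listed neighbours, 12 had a mean of at least 1 nRPKM. Of these, 2 were lowest in library 3, against 18.4% of all genes at this level. Reads that fall where Gas5 and Zbtb37 overlap may have been counted for either or for neither. Between 1.37% (Neat1) and 8.29% (Snhg1) of the 50-base words of the longest GENCODE transcript of each RNA also occur in another annotated gene, such as Snora16a for Snhg12 and Mir675 for H19, which lie within them.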

How the data were processed

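Per the labels' protocols, polyadenylated RNA of sorted and cultured cells was sequenced; per the submitters' processing notes, reads were aligned with GSNAP to mm9, and which annotation, filters and strand setting were used is not stated there. Per the file headers, the deposited count is the number of reads aligned uniquely to a gene model, and the deposited nRPKM is an RPKM adjusted by a size factor. From the values, nRPKM equals the count times a library factor over a gene length, to a relative deviation of 3.8e-14; lengths were set on 33 mitochondrial genes.

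Symbols came from RefSeq (GRCm38.p6) for 25035 of 28096 identifiers; identifiers without a symbol took 2.48% to 3.71% of a library's reads. Library totals were 12133251, 12987938, 12928901 and 13591876. Every pair of libraries differed by at least 39.0 times the sampling noise of counts, as chi-square per degree of freedom. With no label that ties a library to a mouse, p-values measure the spread between these libraries. Between libraries 1, 2 and 4 this spread may be technical. Library 3 had high Xist (66.3 nRPKM) and low Eif2s3y (0.243), the reverse of the others, so it cannot be a technical repeat of them. What rests on library 3 cannot be told apart from a difference of mouse or sex.

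Logarithms are log2(nRPKM + 1), which understates differences of low genes. Pairs of RNAs were compared by exact permutation tests (sign flips, two-sided) (Python 3.11.15, numpy 2.4.6, pandas 2.3.3). Spread was tested on counts with edgeR 4.0.16 in R 4.3.3 (intercept only, TMM, filterByExpr, dispersion ratio against the F distribution, Benjamini-Hochberg at 0.05). On simulated counts of 13156 genes it recovered 32%, 96%, 98% and 98% of 4-, 8-, 16- and 32-fold rises in 1 library, with 0 false calls. Falls, and changes below 4-fold, were not simulated. The 7 RNAs tested varied at most 3.15-fold in nRPKM, so the simulation cannot show whether they could have been called. DESeq2 1.42.0 was an alternative. Intervals of shares are 95% Wilson and those of reads exact 95% Poisson.

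Members and lists were chosen with earlier results of these data known. Genes named are the 8 RNAs, all other noncoding snoRNA hosts, imprinted noncoding RNAs and imprinted genes of the same clusters, the 3 highest of each further list, and the 2 genes most alike to each RNA; any further gene was picked with its values in view. A few genes that the rule names are left out of the text.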

Additional observations from a re-analysis of the deposited data

Results flagged for a closer look

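Of 95 genes examined for a library that stands apart from the other 3 by the ratio of its gap to the whole range (Dixon's test), 1 was found. Mir770, a miRNA gene of the Meg3 locus, had 0, 0, 0 and 1 reads in libraries 1 to 4, so the ratio was 1 on a single read in library 4. Chance gives about 1 such gene in 20.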

How the results depend on the processing

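Of 118 alternative values computed, 101 kept their direction and stayed within the set limits, 13 moved and 4 changed sign. Some of the 101 could not have changed, so this count overstates how stable the results are. A limit to RNAs at 1 nRPKM or more in every library repeats the main value. A range also stays the same when the library left out holds neither the highest nor the lowest value. The number of genes called for spread was 2, and became 66 with no filter on low counts, 71 as DESeq2 dispersion outliers and 0 to 6 when each library was left out in turn; none of the 8 RNAs was called under any of these, nor with DESeq2 size factors or without mitochondrial genes. Without the length scaling (CPM), Snhg1 minus Gas5 became -2.14 and Snhg12 minus Kcnq1ot1 -4.46 (log2). Meg3 minus H19 was 0.02; when 1 library was left out it ranged from -0.13 (library 3), with -0.06 for library 4, to 0.16 (library 1), and it was 1.61 in CPM and 0.23 with a pseudocount of 0.1. The count of RNAs lowest in library 3 was 6, and 3 in CPM; that of other noncoding hosts was 8, and 4 in CPM. These 2 counts, and the count with at least 2-fold variation, 3 with all libraries and 1 without library 3, were chosen after seeing the data. The log2 range over libraries without library 3 was 0.21 for Gas5, 0.56 for Snhg1, 0.51 for Kcnq1ot1 and 1.38 for H19, and without library 1 it was 0.30 for Snhg12; the causes were not tested. Depth limits H19 (at most 26 reads) and Meg3 (at most 98). The design has 1 group and its labels carry no replicate numbers. No paired analysis was possible because there is no second group. A DESeq2 fit without each library in turn was not run.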

Other observations

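Genes of the machinery that acts on these RNAs, not described above, were expressed in these cells. Of 12 genes of nonsense-mediated decay, 12 had a mean of at least 1 nRPKM, with Upf3a at 10.7 ± 4.52 and the exon junction helicase Eif4a3 at 7.98 ± 1.59 nRPKM (SD, n = 4), and 1 of the 12 was lowest in library 3. Upf3a had 7.87, 5.83, 14.1 and 14.9 nRPKM in libraries 1 to 4. Of all genes with a mean of at least 1 nRPKM, 18.4% were lowest in library 3. Of 9 genes of the proteins that bind snoRNAs, 7 had a mean of at least 1 nRPKM and 0 of these were lowest in library 3. Nop58 (35.0 ± 7.94), Nop10 (34.7 ± 9.32) and Nhp2 (15.9 ± 2.73 nRPKM) led the list. Fbl (0.640 nRPKM, 5 to 21 reads) and Snu13 (0.396 nRPKM, 6 to 12 reads) were below 1 nRPKM, and Snu13 was lowest in library 3. No gene of either list was called for spread by edgeR; of 12 and 7 tested, 1 (Upf3a) and 0 had an unadjusted p under 0.05.

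Other imprinted transcripts, most of them noncoding, were also measured. Of 8 listed, 6 matched an identifier and 3 had a mean of at least 1 nRPKM. They were the retrogene Mcts2 (9.88 ± 1.90), Airn (4.86 ± 1.54), which silences Igf2r on the paternal copy, and Peg13 (2.51 ± 0.318 nRPKM, SD, n = 4). Unlike Airn and Peg13, Mcts2 is not among the lncRNA genes in RefSeq. Nctc1, downstream of H19, had at most 2 reads in a library. Among 18 imprinted protein-coding genes elsewhere, 11 had a mean of at least 1 nRPKM, led by Gnas (111 ± 10.5), Igf2r (20.7 ± 5.86) and Grb10 (12.6 ± 1.68 nRPKM). Airn overlaps Igf2r on the opposite strand, so their reads cannot be told apart without the strand.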
